A study of Mus musculus with 9 samples.

Results

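JIB-04 was compared with vehicle in hearts that carry a calcineurin transgene, over 5 hearts: 2 from transgenic animals on JIB-04 and 3 from transgenic animals on vehicle. A gene entered the comparison when its level was at least 1 FPKM in at least 2 of these 5 hearts, which 12975 of the 43154 listed genes met. FPKM counts a transcript's fragments per kilobase of its length and corrects for the number of fragments mapped in each library. All mice were C57BL/6. The transgenic mice (CnAtg) express calcineurin under a cardiomyocyte promoter, that of a myosin heavy chain (MHC), so the transgene is on in 1 cell type of a tissue that holds many. Mice received JIB-04 at 50 mg/kg or vehicle, 3 times a week from 4 weeks of age, and poly(A) RNA of the heart was sequenced without strand. Vehicle heart 1 and JIB-04 heart 1 were collected on postnatal day 125, and vehicle hearts 2 and 3 and JIB-04 heart 2 on postnatal day 158. The 4 wild type hearts, 2 from each day and all given vehicle, served for the estimate of spread and as reference levels. No wild type heart given JIB-04 was analysed here. The labels do not say in words that each library came from its own mouse, so the p-values measure the spread between these libraries.

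Calcineurin is a calcium-activated phosphatase that moves NFAT transcription factors into the nucleus, and its forced activity in cardiomyocytes is a standard model of pathological growth of the heart. JIB-04 is a small molecule that inhibits histone demethylases of the Jumonji family, enzymes that use iron and oxoglutarate to take methyl groups off histone lysines. The compound acts on the enzymes, so a change in the messenger RNA of their genes is not needed for it to work. The comparison asks what the compound changed in the messenger RNA of hearts already under calcineurin.

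Vehicle heart 3 stood apart from the other transgenic hearts. It differed by at least 2-fold (1 unit of log2(FPKM + 1)) from vehicle hearts 1 and 2 in 452 and 457 genes, and from JIB-04 hearts 1 and 2 in 515 and 445 genes. Vehicle hearts 1 and 2 differed from each other in 164 genes, and the 2 JIB-04 hearts in 260. JIB-04 heart 1 differed from vehicle hearts 1 and 2 in 142 and 156 genes, and JIB-04 heart 2 differed from them in 245 and 149, so that 3 of these 4 pairs of unlike treatment lay closer than the closest pair of like treatment. Vehicle heart 3 also had the lowest level of the transgene's gene among transgenic hearts, given with the calcineurin genes. Vehicle heart 3 and JIB-04 heart 2 were the only hearts with mt-Atp6, mt-Atp8 and mt-Co3 above 0, and 29.8% and 30.9% of their summed FPKM lay on the mitochondrial chromosome, against 16.8% to 17.8% in the other 3 transgenic hearts. Since these genes are listed at 0 in hearts that must use them, a value of 0 can be a failed estimate, and such genes are given heart by heart. Both hearts are from day 158, and whether the files of these hearts were made like the others is not known, so its part in the day 158 values was not tested. The spacing of the lowest values gave the transgenic hearts depths of 1 to 1.20 times that of vehicle heart 1. How many reads that was is unknown.

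**Figure D1:**
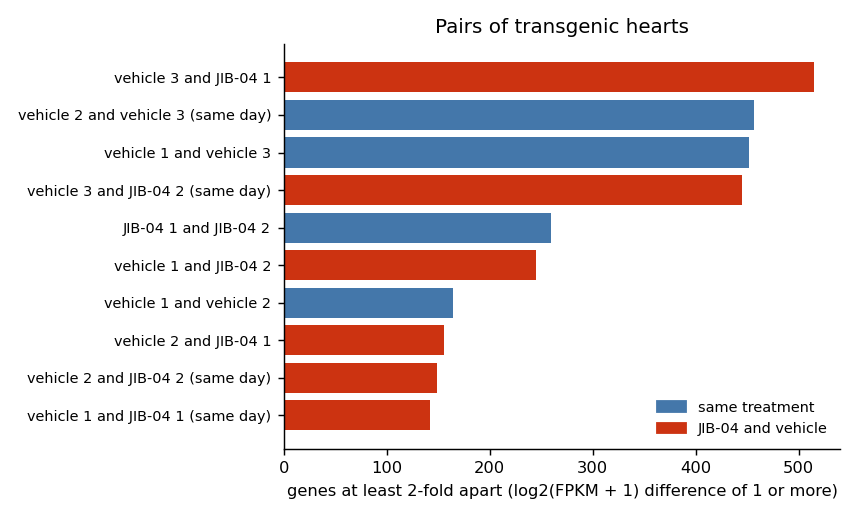
Number of tested genes at least 2-fold apart (x axis) for each of the 10 pairs of transgenic hearts (y axis), blue for hearts of the same treatment and red for a JIB-04 and a vehicle heart. The 4 pairs with vehicle heart 3 hold 445 to 515 genes and the other 6 pairs 142 to 260, with both colours among the low and the high bars.

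With JIB-04 the single transcript that passed the test was listed at 0 in every heart without JIB-04. It is a copy of Gng5, the gene of a γ subunit of heterotrimeric G proteins, and no protein-coding gene passed. Among protein-coding genes with hearts apart and an unadjusted p under 0.01, the largest log2 differences were higher for Ucp3, Cytl1, Fmod, Thbs4 and Angptl4 and lower for Irx2, Ankrd37, Cish, Ifi205 and Ctnnal1, with group means 1.97 to 2.87 times apart. Cfap61, with p above that limit, had a larger difference that rests on vehicle heart 1. The natriuretic peptides, Myh7 and the Jumonji genes overlapped between the treatments, apart from Kdm4c and Kdm8 in the last family. In limma, fitted over all 9 hearts with group means and an effect of day, 1 of 12975 genes (0.00771%) had an adjusted p under 0.05, and it was higher with JIB-04. Past 2-fold (1 unit of log2) were 63 genes (0.486%), 29 higher (0.224%) and 34 lower (0.262%). At an unadjusted p under 0.05 there were 434 genes (3.34%), 166 higher (1.28%) and 268 lower (2.07%). In 1602 genes (12.3%) both JIB-04 hearts lay outside the range of the vehicle hearts, 714 above (5.5%) and 888 below (6.84%). When every heart was scaled to the same total FPKM, 311 lay above and 1404 below. Scaled by the median of gene ratios, 821 lay above and 858 below, and after quantile normalization 807 and 870. With totals that left out the mitochondrial and 20 highest genes, 845 lay above and 706 below. Which direction held more genes thus depended on the scaling. With 2 hearts against 3, the smallest two-sided p of an exact permutation test is 0.2, so no gene can pass by its own hearts alone.

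The called transcript was Gm15776, a processed pseudogene on chromosome 16, positions 22295027 to 22295231 on the plus strand of GRCm38, which the annotation at exactly this position names Gng5-ps. A processed pseudogene is a copy of a messenger RNA that was written back into the genome. It was listed at 0 in all 3 vehicle hearts and all 4 wild type hearts, at 6.66 FPKM in JIB-04 heart 1 and at 11.2 FPKM in JIB-04 heart 2 (limma adjusted p = 0.00093). It entered the test through the JIB-04 hearts alone, and its spread was estimated with 7 values of exactly 0, so its p-value is no measure of how a transcript above 0 varies between hearts. Its 205 bases match the Gng5 messenger RNA at 202, with substitutions G48A, C63T and G168A, written as the Gng5 base, the position from the 5′ end of the pseudogene and the pseudogene base. Both sequences are printed with these bases in capitals, since a short read that covers none of them fits either gene.

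Gng5-ps: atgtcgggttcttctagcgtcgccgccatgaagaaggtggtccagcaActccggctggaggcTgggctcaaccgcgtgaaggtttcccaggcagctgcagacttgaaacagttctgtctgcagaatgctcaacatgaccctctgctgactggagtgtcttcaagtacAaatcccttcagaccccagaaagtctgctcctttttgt
Gng5: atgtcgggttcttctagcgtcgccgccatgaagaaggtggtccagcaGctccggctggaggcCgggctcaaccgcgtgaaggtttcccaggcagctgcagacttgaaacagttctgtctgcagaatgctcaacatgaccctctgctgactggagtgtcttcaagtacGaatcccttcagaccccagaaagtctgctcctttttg

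The second line is the coding stretch of Gng5 over the same bases. Gng5 itself was at 159, 148 and 109 FPKM in the vehicle hearts and at 169 and 124 in the JIB-04 hearts, which overlap. How reads were shared out between the 2 copies is not given in the sources used here, so the level of Gm15776 is uncertain. The call was lost with a pseudocount of 0.1 in place of 1 (limma adjusted p = 0.154) and when the wild type hearts were left out of the fit (0.0923). In that fit the single called gene was Gm14567, another processed pseudogene. Gm14567 was listed at 0 in all 3 vehicle hearts and was at 48.0 and 41.7 FPKM with JIB-04. Gm14567 too entered the test through the JIB-04 hearts alone. Its spread in that fit was estimated with vehicle values of exactly 0, so the limit given for the p-value of Gm15776 holds here. It was also at 122 and 34.7 FPKM in wild type hearts 1 and 3, and at 0 in wild type hearts 2 and 4. Without either JIB-04 heart Gm15776 did not reach the filter.

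Among protein-coding genes Ucp3, an uncoupling protein of the inner mitochondrial membrane that follows fatty acid supply in muscle, had the largest upward difference among those with hearts apart and an unadjusted p under 0.01. Ucp3 (chromosome 7, positions 100472990 to 100486432) was at 4.27, 3.40 and 4.93 FPKM in the vehicle hearts and at 11.6 and 10.8 in the JIB-04 hearts. The groups did not overlap. JIB-04 heart 1 lay within the 11.4 to 19.2 FPKM of the wild type hearts, and JIB-04 heart 2 lay just below them. Its log2 difference was 1.28 ± 0.20 (SE; limma adjusted p = 0.414), 1.25 at day 125 and 1.21 at day 158. Cytl1, a small secreted protein first described in cartilage and blood progenitors, was at 25.8, 38.8 and 23.7 FPKM with vehicle and at 61.7 and 55.7 with JIB-04, against 6.49 to 7.85 in wild type. Its JIB-04 hearts lay farther from wild type than its vehicle hearts did, the opposite placing to that of Ucp3. The log2 difference of Cytl1 was 0.996 ± 0.195 (SE; limma adjusted p = 0.984). It passed without vehicle heart 2, the vehicle heart nearest the JIB-04 hearts, at 1.21 (limma adjusted p = 0.013). Without vehicle heart 1 or 3 it did not pass (limma adjusted p = 0.8355 and 0.8273).

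Angptl4, a secreted inhibitor of lipoprotein lipase, was at 2.98, 2.26 and 4.35 FPKM with vehicle and at 6.71 and 5.88 with JIB-04, and in wild type it did not exceed 1.27. Fmod, a collagen-binding proteoglycan, was at 2.12, 4.1 and 1.92 FPKM with vehicle and at 5.48 and 5.93 with JIB-04. Thbs4, a thrombospondin of the stressed heart, was at 5.94, 7.72 and 3.19 FPKM with vehicle and at 9.58 and 13.8 with JIB-04. In each of these 3 genes both JIB-04 hearts lay above all vehicle hearts, and all transgenic hearts above all wild type hearts. Their log2 differences were 0.83, 0.93 and 0.98, each with limma adjusted p = 0.984, and that of Thbs4 was 0.64 without JIB-04 heart 2. Gm20490, a processed transcript that shares exon positions with Rbm38, was at 0.00835, 2.6 and 2.11 FPKM with vehicle and at 21.1 and 15.2 with JIB-04, but ranged from 1.29 to 25.3 in wild type. The other large upward differences were in processed pseudogenes. Rpl38-ps1 was listed at 0 in all vehicle hearts and was at 4.92 and 16.3 FPKM with JIB-04. Gm12943 was at 7.28, 0 and 0 FPKM with vehicle and at 22.8 and 9.50 with JIB-04, and Gm14472 at 1.25, 0 and 0 and at 6.61 and 3.40. All 3 were also above 0 in at least 1 wild type heart. Their sequences match Rpl38, Rps28 and Atp5h at 98.1%, 97.1% and 95.0% of aligned bases, and these coding genes were each above 100 FPKM in every heart.

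Among genes lower with JIB-04, Tcf15, a transcription factor of heart capillary endothelium that drives genes of fatty acid transport, had the smallest p of the protein-coding genes. Tcf15 (chromosome 2, positions 152143561 to 152149097) was at 14.2, 12.7 and 12.4 FPKM in the vehicle hearts and at 7.84 and 5.85 in the JIB-04 hearts, against 27.6 to 30.4 in wild type. The groups did not overlap, and the JIB-04 hearts were the lowest of all 9. Its log2 difference was -0.88 ± 0.10 (SE; limma adjusted p = 0.130), -0.78 at day 125 and -0.99 at day 158. Ctnnal1, an α-catenin-like scaffold protein, was at 33.8, 25.3 and 36.1 FPKM with vehicle and at 14.3 and 14.1 with JIB-04, against 10.5 to 12.5 in wild type. Its log2 difference was -1.10 ± 0.15 (SE; limma adjusted p = 0.310). It passed without vehicle heart 2, again the vehicle heart nearest the JIB-04 hearts (-1.24, limma adjusted p = 0.0365). Without vehicle heart 1 or 3 it did not pass (limma adjusted p = 0.731 and 0.2231). Irx2, an Iroquois homeobox transcription factor, was at 10.2, 7.25 and 5.58 FPKM with vehicle and at 2.75 and 2.69 with JIB-04. Its JIB-04 hearts lay below wild type too, at 5.14 to 6.37 FPKM. Its log2 difference was -1.21 ± 0.19 (SE; limma adjusted p = 0.414). Irx1, its neighbour on chromosome 13, chosen after its values were seen, was at 5.20, 4.22 and 5.55 FPKM with vehicle and at 2.34 and 2.6 with JIB-04, with a log2 difference of -0.76 (limma adjusted p = 0.984).

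Cish, a feedback inhibitor of cytokine signalling through STAT5, was at 12.2, 12.4 and 30.4 FPKM with vehicle and at 4.72 and 8.59 with JIB-04. Vehicle heart 3 lay far above the other vehicle hearts and within the 20.1 to 29.6 FPKM of wild type. The log2 difference of Cish was -1.19, and -0.84 without vehicle heart 3. Cish shares exon positions with Gm17041, which is annotated as antisense, and the libraries keep no strand, so their reads cannot be told apart. Ankrd37, a target of hypoxia-inducible factors, was at 9.91, 10.8 and 19.6 FPKM with vehicle and at 5.08 and 4.32 with JIB-04, again with vehicle heart 3 highest, and it shares exon positions with Lrp2bp and Ufsp2. Its log2 difference was -1.29, and -0.99 without vehicle heart 3. Ifi205, an interferon-inducible gene of a family of close copies whose reads may be divided among them, was at 6.04, 2.75 and 6.66 FPKM with vehicle and at 2.22 and 1.36 with JIB-04. In these 3 genes the groups did not overlap, and each had limma adjusted p = 0.984. Gm23833, a short non-coding RNA, was at 2.19, 1.67 and 1.19 FPKM with vehicle and listed at 0 with JIB-04 and in wild type (limma adjusted p = 0.130, and 0.0413 with a variance that does not depend on the level). It entered the test through the vehicle hearts alone. Its spread was estimated with values of exactly 0, so, as for Gm15776, these p-values do not measure how a transcript above 0 varies. B230206L02Rik, a non-coding transcript, was at 1.86, 1.39 and 2.18 FPKM with vehicle and at 0.329 and 0.704 with JIB-04 (limma adjusted p = 0.984).

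The days were then taken apart. At day 125, with 1 heart against 1, 142 genes (1.09%) were past 2-fold, 101 higher (0.778%) and 41 lower (0.316%) with JIB-04. At day 158, with 1 heart against 2, 155 genes (1.19%) were past 2-fold, 50 higher (0.385%) and 105 lower (0.809%). The hearts of the days are separate, so the days can be set side by side. Over the 12975 genes the sign was the same at both days in 48.8%, with Pearson r = 0.05 and Spearman rho = 0.041 across genes, which are not independent replicates. Of the genes past 2-fold at day 125, 45.1% had the same sign at day 158. Past 2-fold at both days were 19 genes in the same direction and 24 in opposite directions. Of these 19, 4 were protein-coding: Ucp3, which was higher, and Cish, Ctnnal1 and Ifi205, which were lower. Another 12 (63.2%) were pseudogenes, which make up 6.22% of all tested genes, 47.2% of those past 2-fold at day 125 and 35.5% at day 158.

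**Figure D2:**
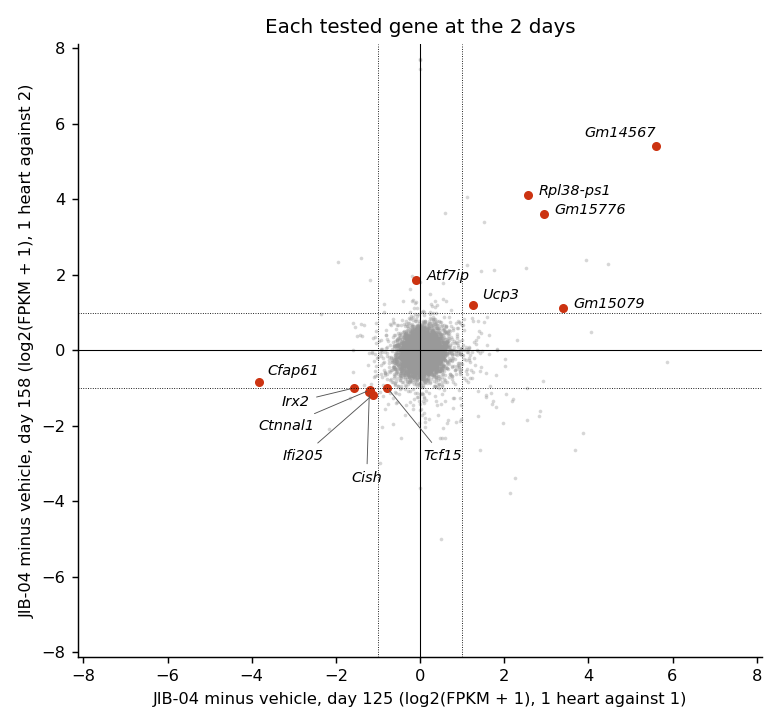
Log2 difference of JIB-04 from vehicle at day 125 (x axis, 1 heart against 1) and at day 158 (y axis, 1 heart against 2) for each of 12975 tested genes, with dotted lines at 2-fold. The cloud has no slope (Pearson r = 0.05), and the marked genes include Ucp3, Ctnnal1, Cish and Ifi205, which pass 2-fold at both days in 1 direction.

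With 1 mean for each of the 6 group and day combinations, where the spread comes from the pairs of hearts and the lone hearts are assumed to vary like them, limma called 3 genes at day 125 (0.0231%), 2 higher (0.0154%) and 1 lower (0.00771%), and 1 at day 158 (0.00771%), which was higher. At an unadjusted p under 0.05 there were 257 genes at day 125 (1.98%), 194 higher (1.5%) and 63 lower (0.486%), and 573 at day 158 (4.42%), 107 higher (0.825%) and 466 lower (3.59%). Gm15776 was called at both days (limma adjusted p = 0.0379 and 0.0156). It was 0 in every pair of hearts that gave the spread, so these calls set single JIB-04 hearts against values of 0. The calls of day 125 compare 1 library with 1 library, not the treatments, and the other 2 rest on vehicle heart 1. Cfap61, a protein of motile cilia that shares exon positions with Crnkl1, was at 17.4 FPKM in vehicle heart 1, at 1.29 and 1.49 in vehicle hearts 2 and 3, and at 0.288 and 0.340 in the JIB-04 hearts (limma adjusted p = 0.0379). The wild type hearts were at 0.964 to 1.55 FPKM, so vehicle heart 1 stood alone in Cfap61. Gm15079, a processed pseudogene on the X chromosome, was listed at 0 in vehicle heart 1 and in all wild type hearts, and was at 6.25 and 7.36 FPKM in vehicle hearts 2 and 3 and at 9.54 and 15.8 in the JIB-04 hearts (limma adjusted p = 0.0379).

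Gm15079 (X chromosome, positions 141434973 to 141435188, plus strand, GRCm38) is a copy of the end of the coding sequence of Svep1, a large adhesion protein of the extracellular matrix, and it matches Svep1 at 213 of 216 bases. It differs by C21G, T192C and C209G, written as for Gng5-ps and shown in capitals, so a read here too can fit either gene.

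Gm15079: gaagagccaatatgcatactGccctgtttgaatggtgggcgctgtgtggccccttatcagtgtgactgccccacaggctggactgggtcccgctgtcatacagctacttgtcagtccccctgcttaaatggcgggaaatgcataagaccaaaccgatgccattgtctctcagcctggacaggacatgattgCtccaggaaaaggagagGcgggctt
Svep1: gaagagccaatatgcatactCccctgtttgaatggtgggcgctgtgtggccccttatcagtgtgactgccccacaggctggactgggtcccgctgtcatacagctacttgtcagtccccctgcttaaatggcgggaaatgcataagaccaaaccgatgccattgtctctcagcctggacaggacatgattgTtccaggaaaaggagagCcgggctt

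Svep1 was at 5.2, 7.7 and 5.2 FPKM in the vehicle hearts, at 7.0 and 11.3 in the JIB-04 hearts and at 1.0 to 1.6 in wild type hearts. As with its copy, JIB-04 heart 2 was highest and the wild type hearts were lowest. The difference of the JIB-04 effect between the days was called for 0 genes in limma, with 397 (3.06%) at an unadjusted p under 0.05, of which 56 (0.432%) were higher and 341 (2.63%) lower at day 158 than at day 125. The difference was past 2-fold in 308 (2.37%), 77 higher (0.593%) and 231 lower (1.78%). The smallest p-values for it were those of Gm13789, Cfap61, Gm2962 and Gm15079, each with limma adjusted p = 0.428. Atf7ip, a partner of the histone methyltransferase Setdb1 that was chosen after its values were seen, was at 11.2 to 13.3 FPKM in the vehicle hearts and JIB-04 heart 1 and at 48.1 in JIB-04 heart 2. The wild type hearts were at 11.8 to 13.9 FPKM, so JIB-04 heart 2 was alone (difference between days 1.96, limma adjusted p = 0.444).

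The genes of the drug's target family had like levels under both treatments. Of 30 listed Jumonji genes, 27 were tested, and limma called 0, with 0 at an unadjusted p under 0.05. Their median log2 difference was 0.04, against -0.01 over all tested genes, and it was -0.02 when hearts were scaled to equal totals and -0.02 without vehicle heart 3. The members ranged from -0.19 to 0.40. Hearts were apart upward in 1 of the 27 and downward in 1 (3.7% each, against 5.5% and 6.84% of all tested genes). Kdm4c, which removes methyl groups from lysine 9 of histone H3, was at 5.43, 5.29 and 4.80 FPKM with vehicle and at 5.51 and 5.46 with JIB-04, a log2 difference of 0.07 (95% interval -0.15 to 0.29). Kdm8 was at 2.002, 2.02 and 2.36 FPKM with vehicle and at 1.84 and 1.65 with JIB-04, a log2 difference of -0.19 (95% interval -0.55 to 0.16).

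The demethylases most often named as targets of such inhibitors lay close together. Kdm4a was at 10.1, 9.67 and 11.5 FPKM with vehicle and at 10.2 and 10.1 with JIB-04, and Kdm4b at 11.8 to 15.1 and at 12.5 and 13.5. Of the demethylases of histone H3 lysine 4, Kdm5a was at 6.49, 10.4 and 7.72 FPKM with vehicle and at 8.24 and 7.96 with JIB-04, Kdm5b at 3.18 to 4.37 and at 3.60 and 4.50, and Kdm5c at 14.6 to 19.8 and at 16.0 and 19.2. Of the demethylases of lysine 27, Kdm6a was at 6.47 to 7.15 FPKM with vehicle and at 6.81 and 7.68 with JIB-04, and Kdm6b at 5.29 to 7.11 and at 6.42 and 5.69. For these 8 genes with Kdm4c, the 95% intervals of the log2 difference reached from -0.35 at the lowest, in Kdm6b, to 0.45 at the highest, in Kdm5b. Kdm6b shares exon positions with Kdm6bos and Kdm5a with Ccdc77. Kdm5d and Uty, both on the Y chromosome, were at most 0.014 FPKM in every one of the 9 hearts, and Kdm4d at most 0.0497.

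**Figure D3:**
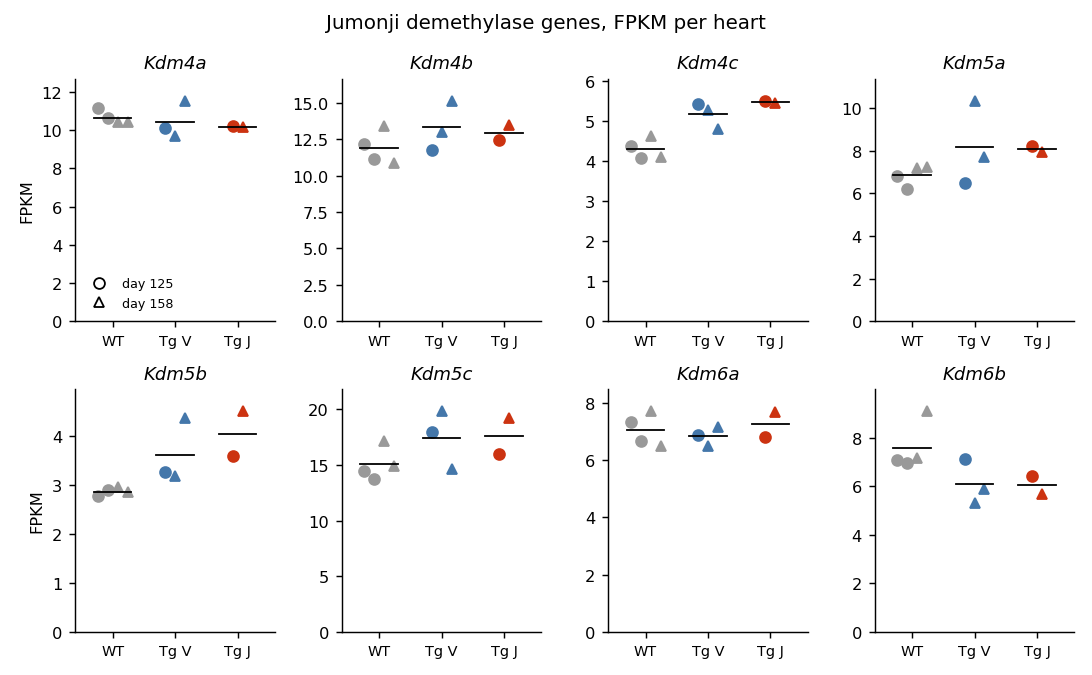
FPKM (y axis, linear, from 0) of 8 Jumonji demethylase genes in each of the 9 hearts by group (x axis: WT, wild type; Tg V, transgenic vehicle; Tg J, transgenic JIB-04), with circles for day 125, triangles for day 158 and a line at the group mean. JIB-04 and vehicle hearts overlap for every gene but Kdm4c, where 5.51 and 5.46 lie just above 5.43.

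The transgene and its feedback came next. Ppp3ca, the gene of the calcineurin Aα subunit, was at 1762, 1706 and 199 FPKM in the vehicle hearts and at 1536 and 1434 in the JIB-04 hearts, against 22.8 to 24.8 in wild type. Vehicle heart 3 was far below the other 4 transgenic hearts but still above all wild type hearts, and without it both JIB-04 hearts lay below the vehicle hearts (log2 difference 0.74 with it and -0.22 without it). Rcan1, a calcineurin target and feedback inhibitor, was at 97.7, 140 and 72.8 FPKM with vehicle and at 140 and 169 with JIB-04. The groups overlapped, with vehicle heart 3 lowest again (log2 difference 0.63 ± 0.23 (SE), limma adjusted p = 0.984). Rcan2 was at 207 to 220 FPKM with vehicle and at 198 in each JIB-04 heart. Of 17 tested calcineurin and NFAT signalling genes limma called 0, and Rcan2 alone did not overlap (5.88%, against 6.84% of all tested genes).

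Fetal and growth genes, which rise in the overloaded heart, showed no call among 23 tested, with a median log2 difference of 0.06 that became -0.02 without vehicle heart 3 and -0.0049 without JIB-04 heart 1. Nppa, atrial natriuretic peptide, was at 1436, 1872 and 2360 FPKM with vehicle and at 2186 and 2326 with JIB-04. Nppb, brain natriuretic peptide, was at 1212, 1364 and 1097 FPKM with vehicle and at 1268 and 1285 with JIB-04. Myh7, the slow myosin heavy chain, was at 1946, 2177 and 3321 FPKM with vehicle and at 2162 and 2168 with JIB-04, and Myh6, the fast one, at 2220, 2073 and 705 and at 1755 and 1964. All 4 overlapped between treatments, and the range of the vehicle hearts in Myh6 and Myh7 was set by vehicle heart 3. Without it the log2 difference of Myh6 was -0.21, against 0.29 with it. Hearts did not overlap in 2 members upward and 2 downward (8.7% each, against 5.5% and 6.84% of all tested genes). Csrp3, a muscle LIM protein of the Z-disc, was lower, at 992, 998 and 1078 FPKM with vehicle and at 941 and 852 with JIB-04.

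Matrix and fibrosis genes had the highest median of the main lists. Of 44 listed genes 41 were tested, limma called 0, 36 had a log2 difference above 0, and the median was 0.35 (0.16 at day 125 and 0.49 at day 158). Without vehicle heart 3 the median was 0.15. An unadjusted p under 0.05 was seen in 7 of the 41, all 7 higher, against 1.28% of all tested genes. Hearts were apart in 4 (9.76%), all higher, against 5.5% of all tested genes: Thbs4 and Fmod, given above, Comp and Ctgf. Ctgf was apart by the margin between 451 and 452 FPKM. Comp, a thrombospondin like Thbs4 and, as Ctgf, chosen after its values were seen, was at 35.4, 30.2 and 53.6 FPKM with vehicle and at 56.5 and 58.1 with JIB-04. The fibrillar collagens overlapped, with vehicle heart 3 far the lowest: Col1a1 was at 38.0, 48.4 and 9.67 FPKM with vehicle and at 39.8 and 46.6 with JIB-04, and Col3a1 at 120, 111 and 14.1 and at 90.1 and 101. Among the other 4 hearts Col1a1 still overlapped, while Col3a1 was lower in both JIB-04 hearts. Over the whole list the summed level was 2081 to 2454 FPKM with vehicle and 2551 to 2643 with JIB-04, which do not overlap, and 700 to 782 in wild type. Per 1000 FPKM of each heart's total, a scaling added after the data were seen, it was 3.76, 4.08 and 3.05 with vehicle and 4.11 and 3.99 with JIB-04, which overlap. The totals of vehicle heart 3 and JIB-04 heart 2 include mt-Atp6, mt-Atp8 and mt-Co3, which are listed at 0 in the other hearts. This lowers the shares of those hearts alone, so the overlap of the shares cannot be read as like levels. Fibroblast markers were level, with 0 of 14 apart and a summed 1363 to 1648 FPKM with vehicle and 1416 to 1568 with JIB-04.

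Genes of fatty acid use and targets of the PPAR nuclear receptors did not move together. Of 48 listed genes 47 were tested, limma called 0, 24 were above 0 and 23 below, and the median was 0.00. Hearts were apart in 5 upward (10.6%, against 5.5%) and in 1 downward (2.13%, against 6.84%). The 5 were Ucp3, Angptl4, Cpt1a, Pdk4 and Slc22a5, of which the last 3 are named after their values were seen. Cpt1a, the entry step of fatty acids into mitochondria in its widely expressed form, was at 8.18, 8.28 and 11.5 FPKM with vehicle and at 11.8 and 12.6 with JIB-04. Pdk4, a kinase that shuts pyruvate out of oxidation, was at 135, 98.0 and 97.3 FPKM with vehicle and at 167 and 196 with JIB-04. The enzymes of the β-oxidation spiral overlapped, for example Acadm at 442 to 553 FPKM with vehicle and at 512 and 415 with JIB-04. Ppara, the receptor itself, was at 14.7, 17.0 and 19.5 FPKM with vehicle and at 9.49 and 14.8 with JIB-04, overlapping by the margin between 14.7 and 14.8.

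The other energy genes lay near 0. In 42 nuclear genes of the respiratory chain and citrate cycle, hearts were apart in 0 and the median was -0.01. Atp5b, the catalytic β subunit of ATP synthase, was at 2031, 1740 and 1760 FPKM with vehicle and at 1803 and 1540 with JIB-04. In 27 genes of glucose use the median was -0.02, with 2 apart upward (7.41%, against 5.5%) and 3 downward (11.1%, against 6.84%). Pdp1, a phosphatase that activates pyruvate dehydrogenase, was at 13.2 to 14.6 FPKM with vehicle and at 14.9 and 17.5 with JIB-04, and Pfkfb2, a bifunctional regulator of glycolysis, at 14.5 to 17.9 and at 13.6 and 13.3. Limma called 0 genes in either list, with 2 and 1 at an unadjusted p under 0.05.

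Calcium handling, channel and sarcomere genes had medians of -0.05 and -0.06 over 37 and 28 tested genes, with 0 called and 0 at an unadjusted p under 0.05 in both lists. Hearts were apart downward in 4 of the 37 (10.8%, against 6.84%) and upward in 0. Kcnip2, the auxiliary subunit of the transient outward potassium channel, was at 166, 153 and 158 FPKM with vehicle and at 138 and 126 with JIB-04 (log2 difference -0.27, 95% interval -0.55 to 0.00). Cacna1h, a T-type calcium channel, was at 2.16, 2.74 and 3.64 FPKM with vehicle and at 1.75 and 1.96 with JIB-04. In the sarcomere list Mylk3, the cardiac myosin light chain kinase, was the single member apart (3.57%, against 6.84%), at 200 to 258 FPKM with vehicle and at 195 and 188 with JIB-04.

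Markers of blood vessel endothelium had their log2 differences mostly below 0 at day 158 and around 0 at day 125. Of 18 tested markers limma called 0, and hearts were apart downward in 5 (27.8%, against 6.84%) and upward in 0. The median was -0.17, with 0.00 at day 125 and -0.33 at day 158, and it was -0.06 without vehicle heart 3 and -0.34 without vehicle heart 1. The general endothelial markers overlapped: Pecam1 was at 32.3, 35.0 and 54.6 FPKM with vehicle and at 34.5 and 32.2 with JIB-04. The members apart included Tcf15 and, chosen after their values were seen, Aqp1 and Egfl7. Aqp1, a water channel, was at 54.1, 53.7 and 52.7 FPKM with vehicle and at 40.0 and 29.5 with JIB-04, against 131 to 213 in wild type (log2 difference -0.69 ± 0.14 (SE), limma adjusted p = 0.984). Egfl7, which shares exon positions with Agpat2, Gm20532 and a pair of microRNA genes, was at 90.6, 91.4 and 133 FPKM with vehicle and at 81.7 and 63.5 with JIB-04. Over the whole list the summed level was 737 to 983 FPKM with vehicle and 670 to 764 with JIB-04, which overlap. In whole tissue, fewer cells of a type and less RNA per cell cannot be told apart.

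The early response genes had different medians at the 2 days, a difference that was not tested. Of 25 tested immediate early genes, limma called 0, and hearts were apart upward in 5 (20%, against 5.5%) and downward in 1 (4%, against 6.84%). The median was 0.54 at day 125 and -0.02 at day 158. Over all hearts it was 0.21, and -0.05 without vehicle heart 1. Ier5, which is induced by growth signals and heat stress, was at 24.9, 29.4 and 18.1 FPKM with vehicle and at 40.8 and 34.2 with JIB-04 (log2 difference 0.61 ± 0.19 (SE), limma adjusted p = 0.984). Egr1, a zinc finger factor chosen after its values were seen, was at 31.2 FPKM in JIB-04 heart 1 and at 4.35 to 7.54 in the other 4 transgenic hearts. JIB-04 heart 1 also had the highest summed level of the list, 639 FPKM against 419 to 479 in the other 4.

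Genes of the NRF2 and xenobiotic response had a log2 difference below 0 in each of the 20 tested members, with a median of -0.20 (-0.27 at day 125 and -0.22 at day 158), and hearts were apart downward in 6 (30.0%, against 6.84%). Limma called 0. The single member at an unadjusted p under 0.05 was Cbr3, a carbonyl reductase, at 3.83, 2.6 and 3.59 FPKM with vehicle and at 2.53 and 2.1 with JIB-04 (log2 difference -0.39 ± 0.17 (SE), limma adjusted p = 0.984). The median kept its sign in all 25 alternative settings. So did those of the matrix, endothelial, iron, muscle wasting, sarcomere, ventricular cardiomyocyte and calcineurin lists. The settings draw on the same hearts, and those that change only the variance model cannot move a median, so a kept sign is no independent support. The medians of the other main lists, immediate early genes and fibroblast markers changed sign in some settings. The remaining lists were not put through these settings. The NRF2 list summed to 893 to 1288 FPKM with vehicle and to 1004 and 895 with JIB-04, which overlap. Of 14 iron genes hearts were apart downward in 4 (28.6%, against 6.84%), among them Fth1, the ferritin heavy chain, at 1132, 1079 and 1329 FPKM with vehicle and at 1066 and 926 with JIB-04. Hmox1, which frees iron from haem and is counted here, in the NRF2 list and under hypoxia, was at 11.1, 6.75 and 9.11 FPKM with vehicle and at 4.98 and 6.68 with JIB-04, and was chosen after its values were seen. Of 19 genes of muscle wasting and autophagy, 16 were below 0 and 3 were apart downward (15.8%, against 6.84%). Among the 3 was Trim63, the muscle ubiquitin ligase MuRF1, at 125, 130 and 169 FPKM with vehicle and at 111 and 103 with JIB-04.

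The remaining response lists had 0 calls in limma and medians from -0.08 to 0.11. They were hypoxia (19 tested), the unfolded protein and integrated stress response (28), cell cycle (18), apoptosis and p53 (18), interferon response (23), cytokines and chemokines (20), the circadian clock (20) and the mitochondrial chromosome (13). In the stress list Dnajc3, an endoplasmic reticulum co-chaperone, was at 21.5 to 23.7 FPKM with vehicle and at 19.0 in each JIB-04 heart. Il33, an alarmin of the stroma, was at 2.66, 2.41 and 2.29 FPKM with vehicle and at 1.36 and 1.56 with JIB-04. Mcm5, a subunit of the replication helicase, was at 0.698, 1.30 and 0.393 FPKM with vehicle and at 1.68 and 1.47 with JIB-04. Both JIB-04 hearts were outside the vehicle range in all 3, and each had limma adjusted p = 0.984. Of 18 germline genes, 0 reached the filter, and the list summed to 1.722 to 1.995 FPKM with vehicle and to 1.78 and 2.36 with JIB-04.

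**Figure D4:**
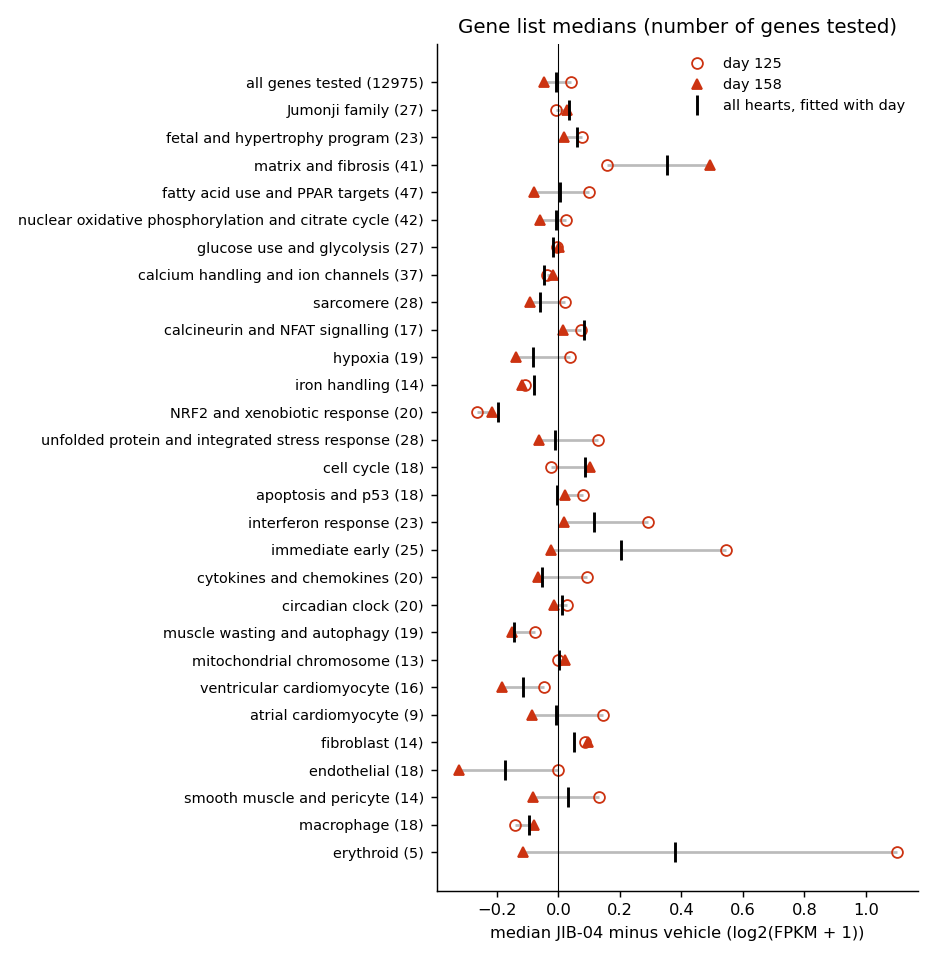
Median log2 difference of JIB-04 from vehicle (x axis) for all tested genes and for the gene lists with at least 5 tested members (y axis, number tested in brackets), at day 125 (open circles), at day 158 (triangles) and fitted over all hearts (bars). Matrix genes lie at 0.16 and 0.49, endothelial markers at 0.00 and -0.33 and immediate early genes at 0.54 and -0.02, while the medians over all tested genes are 0.04 and -0.05.

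Markers of the tissue were those of heart muscle. The 16 ventricular cardiomyocyte markers summed to 26944 to 30145 FPKM with vehicle and to 29230 and 25643 with JIB-04. Hearts were apart downward in 2 of the 16 (12.5%, against 6.84% of all tested genes), and the median was -0.12. Of the 18 macrophage markers 0 were apart, with sums of 309 to 452 FPKM and of 312 and 354. Of 14 smooth muscle and pericyte markers 1 was apart downward (7.14%, against 6.84%), and Cspg4, the pericyte proteoglycan NG2, overlapped at 9.56, 11.2 and 8.86 FPKM with vehicle and at 11.1 and 13.7 with JIB-04. Blood cell genes differed between single hearts. The erythroid markers summed to 10970 FPKM in JIB-04 heart 1, the highest of the 5, and to 5290 in vehicle heart 1, the lowest, so that their median was 1.1 at day 125 and -0.11 at day 158. The neutrophil and mast cell markers summed to 4.45 FPKM in vehicle heart 1, 22.8 in JIB-04 heart 1 and 37.9 in vehicle heart 3. Whether blood left in the hearts bears on the day 125 differences was not tested. Adipocyte markers summed to at most 1.73 FPKM in any transgenic heart, and 0 of 7 were tested. Lymphocyte, epicardial, Schwann and skeletal muscle lists had 1 or 2 tested members each, with 0 called.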

How the data were processed

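Poly(A) RNA of 9 mouse hearts was grouped by the titles. The day is that on each heart's label, although the series text describes dosing until day 158. The submitters' processing notes name STAR 2.7.1a for use on GRCm38, with Picard, GATK 4.1.2 and Cufflinks 2.2.1. Deposited values are log2 FPKM per the file headers. The constant inside the logarithm is not given, and 1 was used because the values start at 0. Genes were tested on log2(FPKM + 1) by limma 3.58.1 under R 4.3.3 (group means and day, eBayes with a trend, 5 residual and 3.1 prior degrees of freedom), two-sided, with Benjamini-Hochberg adjustment over all 12975 genes at 0.05. This scale understates changes at low levels. The fit was run on simulated data with normal spread, no outlying heart and changes placed only in genes of higher level. That run cannot show how the fit treats transcripts listed at 0 or a heart like vehicle heart 3. Positions, types and exon overlaps came from GENCODE M21, which matched 42279 of 43154 genes. Pseudogenes were aligned with Biopython 1.88 to the coding transcript that shared most 21-base words. The members and gene lists were chosen with earlier results of these data known. Named by rule were called genes, the 8 largest rises and falls with p under 0.01 and hearts apart, the leading members of each list, fixed genes of the model and the 4 smallest p for the difference between days. A gene so named is not reported here. Alternatives were other pseudocounts, filters, scalings, designs and variance models, and leaving out each heart.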

Additional observations from a re-analysis of the deposited data

Results flagged for a closer look

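Among the 4 wild type hearts, 2 of the 54 named genes had a heart that lay far from the rest, where chance gives about 1 in 20. Kdm6b was at 9.08 FPKM in wild type heart 4, against a median of 7.13 in the group. Rpl38-ps1 was at 8.79 FPKM in wild type heart 2 and listed at 0 in the other 3.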

How the results depend on the processing

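The number of genes called for JIB-04 against vehicle (1, Gm15776) was 0 with a pseudocount of 0.1, 5 with no filter, 0 in the day 158 hearts alone, 2 without the trend and 0 among protein-coding genes only (added after the data were seen), and 0 to 3 when a heart was left out. It was 2 without vehicle heart 1, 3 without vehicle heart 2, 2 without vehicle heart 3, 0 without JIB-04 heart 2 and 2 without wild type heart 3. Without JIB-04 heart 1 the single call was Atf7ip (limma adjusted p = 0.0284), not Gm15776. Within day 125 (3 calls) the count was 0 with a pseudocount of 0.1 and 0 with a filter of 5 FPKM. Within day 158 (1 call) these gave 3 and 0, and leaving out vehicle heart 3 or 2, tried after the data were seen, gave 2 to 22. The difference between the days went from 0 to 6 calls without vehicle heart 2, Ppp3ca and Col3a1 among them, where vehicle heart 3 is the only day 158 vehicle heart left. Genes with hearts apart (1602) numbered 3037 with no filter and 972 with a filter of 5 FPKM, where more and fewer genes enter, 7375 in the day 158 hearts alone, and 1602 to 5969 when a heart was left out, since fewer hearts are more easily apart (2995, 3552 and 3106 without vehicle hearts 1, 2 and 3, and 5969 and 5632 without JIB-04 hearts 1 and 2). The counts at an unadjusted p under 0.05 moved by over 1.5 times from 434 to 994 with no filter, 289 with a filter of 5 FPKM, 220 in transgenic hearts alone, 960 without vehicle heart 2 and 263 without JIB-04 heart 2. Signs turned, with a shift of at least 1 standard error of the reported difference, for Atf7ip (-0.0902 without JIB-04 heart 2, up to 1.86 without JIB-04 heart 1), Gm2962 (0.59 without JIB-04 heart 2, down to -1.05 without JIB-04 heart 1), Kdm5a (-0.15 in the day 158 hearts alone), Myh6 (-0.21 without vehicle heart 3, up to 0.67 without vehicle heart 1) and Ppp3ca (-0.22 without vehicle heart 3, up to 1.36 without vehicle heart 1). Smaller differences also changed sign in at least 1 setting for Myh7 (0.07 without vehicle heart 3), Nppb (-0.01 without vehicle heart 3), Kdm4a, Kdm4b, Kdm5c, Kdm6a, Kdm6b and Gng5, none of them called. With the replicate number as a block in place of the day, 1 gene was called (Gm15776, limma adjusted p = 0.0405) and 1602 had hearts apart. Deviations of same-numbered transgenic hearts from their group means correlated at 0.45 (number 1) and -0.08 (number 2). Hearts of the same number here also shared a day, so the values cannot show whether the numbers pair the hearts. Apart from these, the cause of the changes was not tested. The precision is limited by 2 JIB-04 hearts, 1 on each day.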
